A study of Mus musculus with 6 samples.

Results

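The dorsal root ganglia (DRG) of lumbar levels 4 and 5 and the sciatic nerve of sham mice were compared on 2 Illumina MouseRef-8 v2.0 arrays, 1 for each tissue. Members were the probes that carry a gene symbol and were detected in at least 1 of the 2 arrays (detection p-value under 0.05 against the negative controls of the array). There were 14229 such probes of 25697 in all, and they stood for 10428 genes. Where a gene had several probes, the one brightest on average over the 6 arrays of the study stood for it, and with this choice 10397 of 16593 genes were detected in either tissue. Of these, 8444 were detected in both tissues, 1234 in the sham DRG alone and 719 in the sham nerve alone.

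Both tissues came from adult female C57Bl6 mice, and each array held 1 pool of RNA from 6 animals. The sham DRG array is named by its labels as normal DRG of the right side, and the sham nerve array as normal right nerve, while the study calls both of them sham-operated, which means that the sciatic nerve was exposed and otherwise left alone. The study describes the DRG as taken from the same animals as the nerves. The other 4 arrays held DRG and sciatic nerve at day 5 after transection, nerve at day 1, and spinal cord at day 5, and they serve below only to describe the genes found in the sham pair. The title of the day 5 nerve array ends in the same code as that of the day 1 nerve array, while its other labels give day 5, which is followed here. Since each tissue had 1 array, no replicate check was possible and the tissues were not compared by any test. The ranges in parentheses after a fold are 95% intervals computed from bead standard errors, and they cover technical error only, not the variation between animals.

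A DRG holds the cell bodies of the sensory neurons, each wrapped in satellite glia, while the sciatic nerve holds their axons together with those of motor and sympathetic neurons. Because most mRNA of a neuron stays around the nucleus, the RNA of a nerve comes mainly from Schwann cells (SCs), which make its myelin, and from the fibroblasts, perineurial cells, vessels, immune cells and fat of its sheaths. A comparison of the 2 tissues therefore sets transcripts of neuronal cell bodies against those of the cells that surround their axons.

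At the fold of 2, 1251 genes were higher in the sham DRG (12.0% of 10397) and 1141 were lower (11.0%), and 8005 lay less than 2-fold apart. Each array was first scaled so that the medians of all probes were equal. In folds, an undetected signal was replaced by a floor, the dimmest detected signal on that array (117 in the sham DRG and 124 in the sham nerve), while the signals printed are scaled but not floored. A fold against an undetected signal is a lower bound, and this held for 298 of the higher and 48 of the lower genes. Differences past 10-fold were found mostly in 1 direction, as 175 genes exceeded 10-fold on the DRG side and 16 on the nerve side. These counts were 379 and 62 with neqc, a background correction followed by quantile normalization, and 172 and 28 in the authors' processed table. No background was subtracted, which pulls the folds of dim genes toward 1. The balance of calls depended on the scaling. The higher genes made up 52.3% of all calls here, 62.5% without scaling (1507 higher and 906 lower) and 45.1% with neqc (1729 higher and 2107 lower). Without scaling the median log2 difference of all genes lay at 0.12, against -0.05 here.

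**Figure D1:**
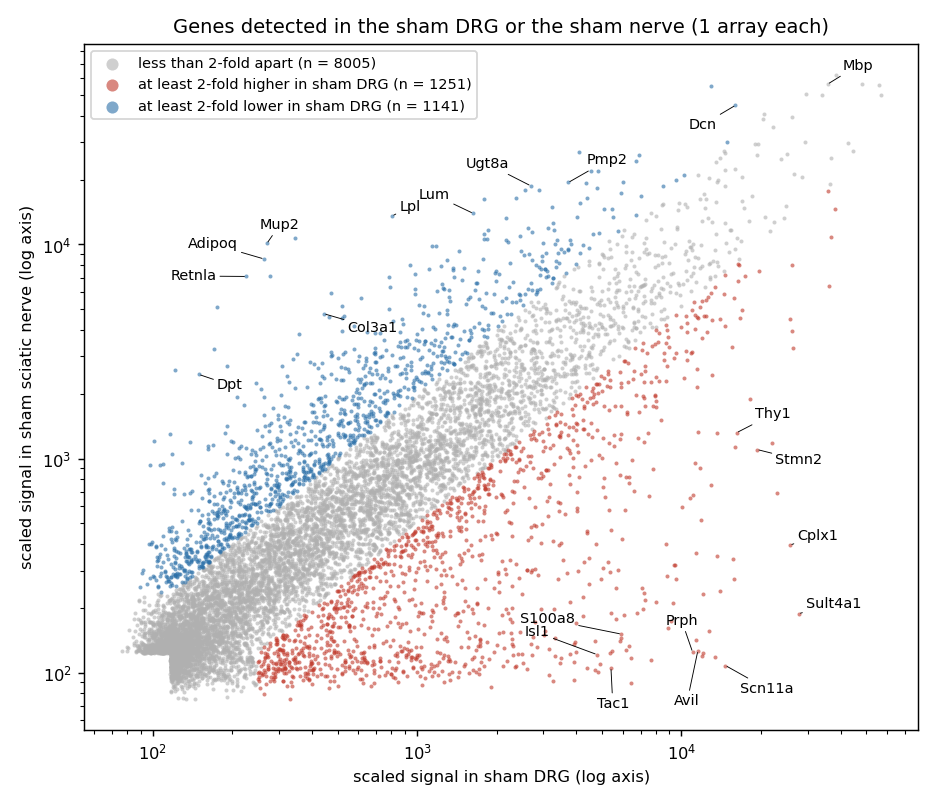
Scaled signal of each gene in the sham DRG (horizontal, log axis) and in the sham nerve (vertical, log axis), 1 point a gene and 1 array a tissue. Red points lie at least 2-fold higher and blue points at least 2-fold lower in the sham DRG. The red points spread along the floor of the nerve array, out to Scn11a at a DRG signal of 14670, while the blue points stay nearer to the diagonal.

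The labels were checked against marker genes. Isl1 and Pou4f1, transcription factors of sensory neurons, gave signals of 4785 and 3260 in the sham DRG and were not detected in the sham nerve. The intermediate filament Prph and the sodium channel Scn10a had 11010 and 1719 in the sham DRG, against 125 and a signal that was not detected (98.8) in the sham nerve. The myelin genes Mbp, Pmp22 and Mag were detected in both tissues and were brighter in the nerve. Both labels therefore fit their markers.

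Markers of other tissues were also present, and some of them differed between the sham DRG and the sham nerve. Of 20 genes of spinal cord neurons, 7 were detected in the sham DRG and 1 in the sham nerve, and their summed signal was 7725 in the sham DRG, 2042 in the sham nerve, 3595 in the day 5 DRG and 49470 in the spinal cord. The day 1 nerve also detected 7 of them, with a summed signal of 4537. Slc32a1, the vesicular transporter of inhibitory neurons, gave 1025 in the sham DRG, was not detected in the sham nerve or the day 5 DRG, and had 11200 in the spinal cord. Olig1, a transcription factor of oligodendrocytes, had 966 in the sham DRG, was not detected in the sham nerve or in the day 5 DRG, and had 12070 in the spinal cord. The defining cord markers Chat and Slc6a5 were not detected in the sham DRG.

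Among the 1251 genes higher in the sham DRG, 5 were not detected in the day 5 DRG, and for all 5 the spinal cord signal exceeded that of the sham DRG at least 2-fold. They were Slc32a1, Olig1, Gad1, which makes the transmitter GABA, Slc39a12, a zinc transporter, and Mog, a protein of oligodendrocyte myelin. Their sham DRG signals came to 6.65 to 11.4% of their spinal cord signals. In the day 1 nerve, Slc32a1, Olig1, Gad1, Slc39a12 and Mog were at 556, 900, 386, 309 and 273, so these signals were not particular to the sham DRG. Mobp, Aqp4 and Pdyn, further genes of the cord, were at 365, 398 and 369 in the sham DRG and at 120, 133 and 121 in the day 5 DRG. The whole list of oligodendrocyte and astrocyte genes was mixed, with 6 of 18 higher in the sham DRG and 3 lower (median log2 difference 0.51). Its summed signal was 13731 in the sham DRG, 13774 in the sham nerve and 97168 in the spinal cord. The part of spinal cord RNA in the other folds was not tested. The day 5 DRG array did not detect these 5 genes because they were picked for that. It did detect 6 of the 20 genes of spinal cord neurons, and its values are given for some of the results below.

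**Figure D2:**
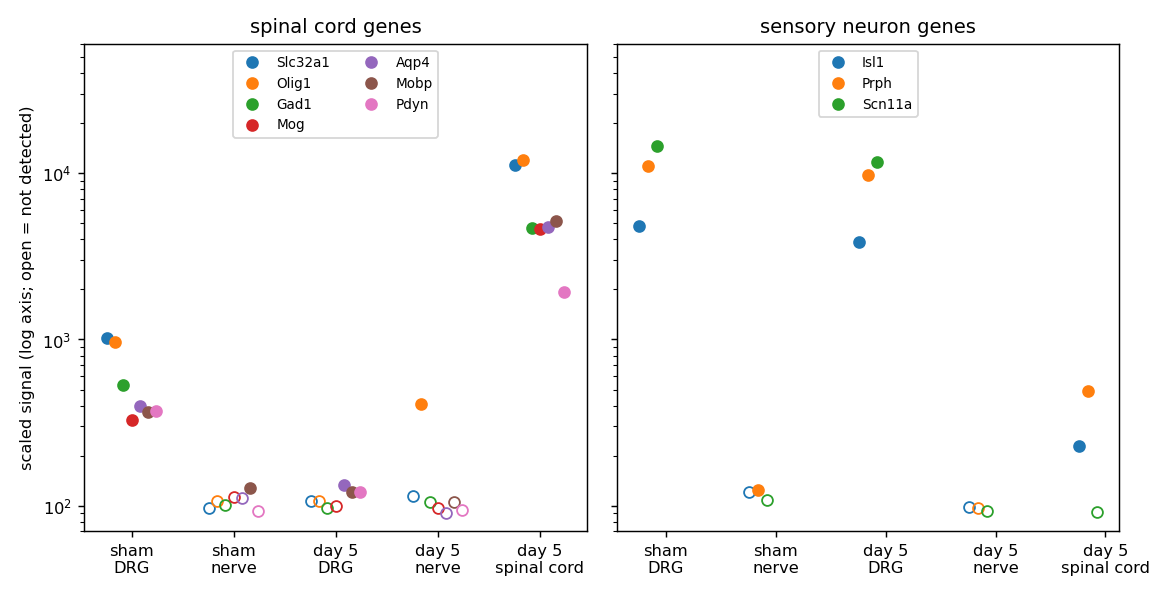
Scaled signals (log axis) of 7 spinal cord genes on the left and 3 sensory neuron genes on the right in 5 arrays, with open circles where a gene was not detected. The day 1 nerve array is not drawn. The spinal cord genes lie at 329 to 1025 in the sham DRG and at or near the floor in the day 5 DRG, while the sensory neuron genes are bright in both DRG arrays.

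In the other direction, the sham nerve carried fat. Of 17 adipocyte markers, 11 were detected in the sham DRG and 12 in the sham nerve, and their summed signal was 4578 in the sham DRG and 47839 in the sham nerve. Skeletal muscle markers were detected in both tissues at similar levels, with 17 of 20 detected in each, and their summed signal was 17405 in the sham DRG and 12313 in the sham nerve. Without Pvalb, which proprioceptive neurons also express, it was 9019 in the sham DRG and 10796 in the sham nerve. Neutrophil markers summed to 11981 in the sham DRG and 3915 in the sham nerve. The part of these cells in any other difference was not tested. In bulk RNA, fewer cells of a type and less RNA in each cell cannot be told apart.

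Genes of neurons were among those with the widest differences. Of 19 detected genes that mark neurons in general, 18 were at least 2-fold higher in the sham DRG and 0 were lower, with a median log2 difference of 3.54, against -0.05 for all genes. Rbfox3, the splicing factor known as NeuN, gave 6445 in the sham DRG and was not detected in the sham nerve, so that it was at least 52.1-fold higher. Elavl2, an RNA-binding protein of neurons, had 6429 in the sham DRG, was not detected in the nerve and was at least 51.9-fold higher. Both genes thus lay far above the 2-fold line, and both were bright in the day 5 DRG as well (3895 and 6261). Thy1, a surface protein of neurons and of some fibroblasts, was 16180 in the sham DRG and 1322 in the sham nerve, a fold of 12.2 (10.4 to 14.4). The remaining detected member was Nsg1, at 149 in the sham DRG and 147 in the sham nerve.

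Genes of the neuronal cytoskeleton followed, with 20 of 26 higher, 0 lower and a median of 2.93. The neurofilament Nefm had 12090 in the sham DRG and was not detected in the nerve, which put it at least 97.7-fold higher, and Nefh had 8885 in the sham DRG and 163 in the nerve (54.6-fold, 44.8 to 66.6). The peripheral neuron filament Prph was 88.1-fold higher (71.7 to 108). Neurofilament proteins fill the axons of the nerve, and the arrays measure only their transcripts. Stmn2, a regulator of microtubules, kept a clear signal in the nerve, at 19350 in the sham DRG and 1102 in the sham nerve (17.6-fold, 15.2 to 20.3). The kinesins Kif5a and Kif5c, which carry cargo along axons, had log2 differences of 4.17 and 2.90. Stmn1, a stathmin that dividing cells also use, was at 794 in the sham DRG and 1293 in the sham nerve, 1.63-fold lower.

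Of 26 detected genes for synaptic vesicles and their release, 21 were higher and 1 was lower (median 3.03). Cplx1, a complexin that holds vesicles ready for release, was at 25770 in the sham DRG and 395 in the sham nerve (65.3-fold, 56.0 to 76.0). Syngr3, a synaptic vesicle protein, was 47.5-fold higher (39.5 to 57.2). Sncg, the gamma-synuclein of sensory neurons, was bright in the nerve too, at 36820 in the sham DRG and 10840 in the sham nerve (3.40-fold, 2.91 to 3.96). The lower member was Syngr1, at 441 in the sham DRG and 920 in the sham nerve, whose call was lost without scaling and 2 of whose other probes went the opposite way.

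The transcription factors that specify sensory neurons were higher for 8 of 13 detected genes and lower for 0 (median 1.31). Isl1 was at least 38.7-fold, Pou4f1 at least 26.3-fold, Tlx3 at least 12.2-fold and Isl2 at least 9.33-fold higher, and none of these was detected in the nerve. Runx1, which marks nociceptor precursors and also blood cells, was dimmer, at 315 in the sham DRG and not detected in the sham nerve. Mafa, Maf, Shox2, Ebf1 and Etv1 lay less than 2-fold apart.

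Receptors and channels of nociceptors and touch neurons were higher for 18 of 26 detected genes and lower for 0 (median 1.55). Of the 26, 18 were detected in the sham DRG alone, and such a gene cannot count as lower. Mrgpra2b, a receptor of the Mrgpr family, had 2307, and the coagulation factor receptor F2rl2 had 2182, so that they were at least 18.6-fold and at least 17.6-fold higher. Asic3, an acid-sensing channel, had 1877 (at least 15.2-fold), and Htr3a, a serotonin-gated channel, had 1566 (at least 12.7-fold). The capsaicin receptor Trpv1 had 498 and the ATP receptor P2rx3 had 674, and both were not detected in the nerve. Piezo2, the channel of light touch, was detected in both, at 901 in the sham DRG and 290 in the sham nerve (3.11-fold, 2.57 to 3.76). Kcnk2 and Osmr were dimmer in the sham DRG than in the nerve, at 267 and 665 in the DRG against 408 and 779 in the nerve, differences under 2-fold.

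Sodium channel subunits were higher for 4 of 8 genes. Scn11a, the Nav1.9 channel of nociceptors, was the brightest gene that was detected in the sham DRG alone, at 14670, and was at least 118-fold higher. Scn10a, the Nav1.8 channel, had 1719 and was at least 13.9-fold higher, and the beta subunit Scn4b was at 2455 in the sham DRG and 154 in the sham nerve (15.9-fold). Scn7a, a channel that SCs also express, was at 413 in the sham DRG and 488 in the sham nerve. Potassium channel genes were higher for 11 of 20 and lower for 0 (median 1.23), led by the beta subunit Kcnab2, at 15710 in the sham DRG and 338 in the sham nerve (46.5-fold, 38.5 to 56.1). Kcna1 and Kcna2, the channels that lie beside the nodes of Ranvier in myelinated axons, were at 200 and 579 in the sham DRG, against 152 and 646 in the sham nerve, and both lay less than 2-fold apart.

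Neuropeptides and their processing genes were higher for 15 of 20 and lower for 0 (median 2.71). Tac1, the precursor of substance P, had 5410 in the sham DRG and was at least 43.7-fold higher, and Scg2, a granin of secretory granules, had 4837 and was at least 39.1-fold higher. Calcb, a CGRP gene, had 1060 (at least 8.56-fold), and Adcyap1, the precursor of PACAP, had 1322 (at least 10.7-fold). Npy, which sensory neurons make after injury, had 246 and did not reach 2-fold in the sham pair, while its day 5 DRG signal was 3855. Slc17a6, the main vesicular glutamate transporter of these neurons, was at 11390 in the sham DRG and 142 in the sham nerve (80.2-fold, 69.5 to 92.5). Th, which makes dopamine and noradrenaline and marks a class of touch fibers, had 621 in the sham DRG and was not detected in the nerve. Slc6a2, the noradrenaline transporter of sympathetic axons, went the other way, as it was not detected in the sham DRG and had 283 in the sham nerve (at least 2.42-fold lower).

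Growth factor receptors did not share 1 direction, with 4 of 9 higher and 1 lower. Ret, the GDNF family receptor, was at 2212 in the sham DRG and 189 in the sham nerve (11.7-fold, 9.71 to 14.0), and Ngfr, the p75 neurotrophin receptor, was at 5851 in the sham DRG and 836 in the sham nerve (6.99-fold, 6.12 to 7.99). At day 5 the signals of Ngfr were 5862 in the DRG and 4193 in the injured nerve, so that it was less than 2-fold apart there. Sort1, a sorting receptor that also binds neurotrophin precursors, was lower in the sham DRG, at 3122 against 7130 in the sham nerve (2.28-fold lower, 1.98 to 2.64). Of the ligands, Bdnf had 807 in the sham DRG and was not detected in the nerve.

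**Figure D3:**
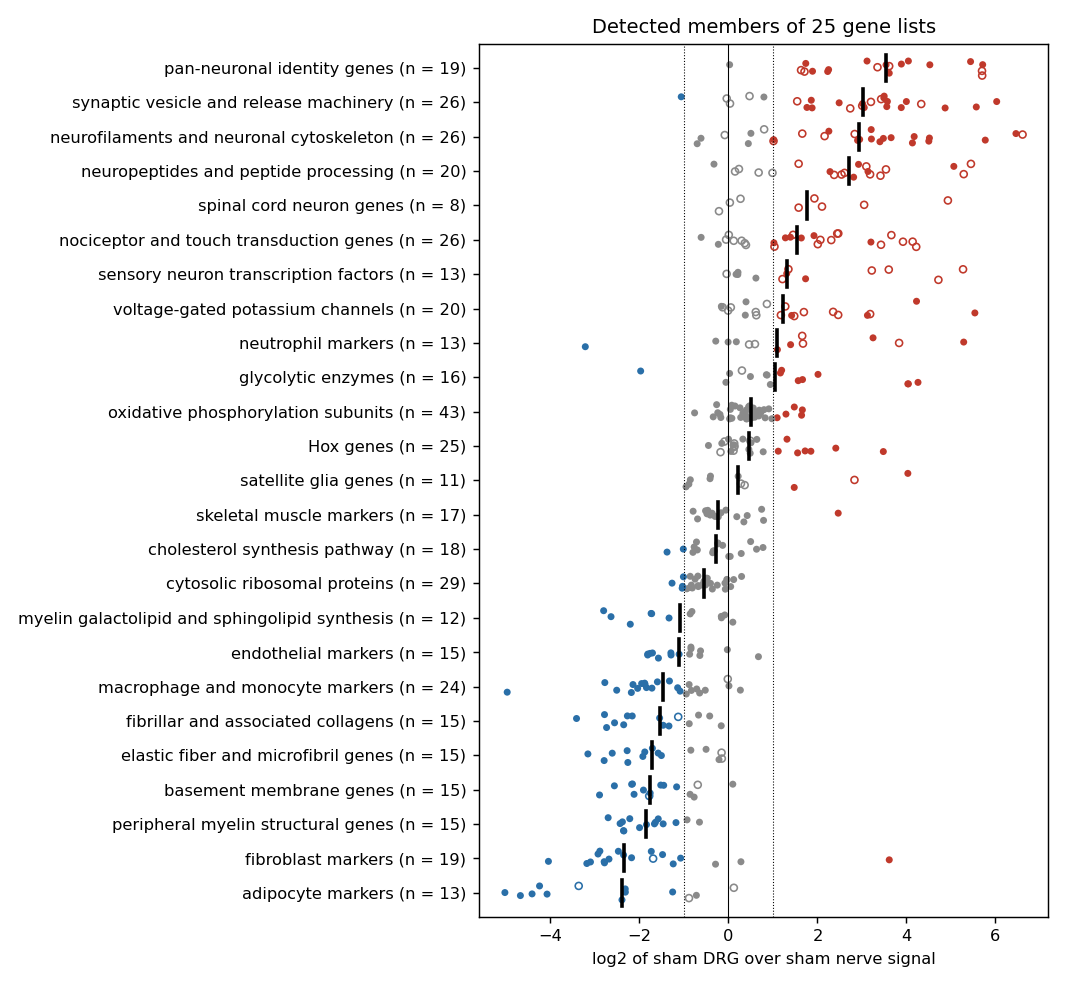
Log2 of the sham DRG over the sham nerve signal for the detected members of 25 gene lists, 1 point a gene, with bars at the medians and dotted lines at 2-fold. Open circles are genes that 1 of the arrays did not detect, so that their values are lower bounds. Neuronal lists lie to the right, up to a median of 3.54, and fibroblast and adipocyte lists to the left, down to medians of -2.36 and -2.39.

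By size alone, the widest difference among genes detected in both tissues was that of Sult4a1, a sulfotransferase of neurons, at 27760 in the sham DRG and 189 in the sham nerve (147-fold, 123 to 176). It was followed by Avil, the actin-binding protein advillin of sensory neurons, at 11530 in the sham DRG and 127 in the sham nerve (91.1-fold, 77.1 to 108). The bead intervals of Avil, Prph, Diras1 (81.4-fold, 70.7 to 93.6) and Slc17a6 overlap, so that they have no order. Among the others were Cplx1, Fgf13, which binds sodium channels, Atp1b1, a subunit of the sodium pump, Nefh, Bex2 and Rgs4, a brake on G protein signals, at 51.4-fold or more. After Scn11a, the brightest genes detected in the sham DRG alone were Vstm2l (13340), Nefm, Cpne6, a calcium-binding copine (11990), and Pacsin1, which acts in vesicle recycling (7639).

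Spinal cord, which also holds neurons, was used to describe which of these genes were brighter in DRG than in another tissue with neurons. The comparison was made with the day 5 DRG. The 5 cord genes named above were picked as undetected there, and the part of spinal cord RNA in that array was not tested. Of the 175 genes at least 10-fold higher in the sham DRG, the day 5 DRG exceeded the spinal cord at least 2-fold for 54 (30.9%), lay at least 2-fold below it for 28 (16%) and did neither for 93. Over all 10397 genes these shares were 7.43% above and 5.69% below. The 175 genes were picked for a high signal in the sham DRG, whose log2 signals correlated with those of the day 5 DRG at 0.987. A larger share above the spinal cord was therefore partly built in. The widest gaps were those of Avil, Scn11a and Fxyd2, a regulator of the sodium pump, which had 12540, 11740 and 7796 in the day 5 DRG and were not detected in the spinal cord. Acpp, an acid phosphatase of nociceptors, was at 4323 in the day 5 DRG and 154 in the spinal cord, and Pirt, a regulator of TRP channels, had 3170 in the day 5 DRG and was not detected in the spinal cord. At the other end, Rasgrf1, a Ras activator, was at 1406 in the day 5 DRG and 27950 in the spinal cord, and the peptide Sst was at 494 in the day 5 DRG and 6324 in the spinal cord. In the sham DRG these 2 genes were at 3778 and 1440, and Rasgrf1 was at 1755 in the day 1 nerve. The parts of injury and of spinal cord RNA in these values were not tested.

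Many neuronal genes are kept off in other cells by the repressor REST, which binds a long element named RE1. The letters of its opening part, TTCAGCACC, were searched on both strands of RefSeq promoters (GRCm38.p6, 250 bases before to 50 after each start). Of the 175 genes at least 10-fold higher, 130 had a promoter in the table and 3 of these held the letters (2.31%), namely Syn1, Dner and Scg2. The share was 0.911% (9 of 988) for all genes at least 2-fold higher, 0.352% (3 of 853) for those lower, 0.49% (41 of 8365) for all detected genes and 0.371% of all 32851 promoters. These counts are small, and a match describes letters and not a bound site. The bases before the start are shown for Syn1 and Dner, in which the whole match lies before the start, with the matched letters in capitals, because both genes were dim in the nerve and bright in the DRG. For Syn1, synapsin, these 250 bases lie at chrX:20920919-20921168 on the minus strand, and the gene was at 9341 in the sham DRG and 320 in the sham nerve (29.2-fold). For Dner, a Notch ligand of neurons, they lie at chr1:84696222-84696471 on the minus strand, and the gene was at 3331 in the sham DRG and 146 in the sham nerve (22.8-fold).
Syn1: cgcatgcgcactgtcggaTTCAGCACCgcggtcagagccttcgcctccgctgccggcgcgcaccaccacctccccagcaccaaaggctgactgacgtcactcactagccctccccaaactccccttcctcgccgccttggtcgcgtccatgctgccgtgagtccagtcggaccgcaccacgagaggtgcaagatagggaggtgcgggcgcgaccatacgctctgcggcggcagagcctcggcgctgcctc
Dner: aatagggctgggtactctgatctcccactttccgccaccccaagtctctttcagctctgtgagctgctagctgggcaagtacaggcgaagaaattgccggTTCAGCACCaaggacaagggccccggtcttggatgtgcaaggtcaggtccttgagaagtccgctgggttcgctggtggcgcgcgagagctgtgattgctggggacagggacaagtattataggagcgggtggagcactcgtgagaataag
The match begins 232 bases before the start in Syn1 and 150 bases before it in Dner.

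Genes of SCs and myelin lay on the other side. Of 15 detected structural genes of peripheral myelin, 13 were at least 2-fold lower in the sham DRG and 0 were higher (median log2 difference -1.84). The lipid-binding protein Pmp2 was at 3732 in the sham DRG and 19480 in the sham nerve (5.22-fold lower, 4.36 to 6.25). Drp2, a partner of periaxin at the outer face of myelin, was at 2205 in the sham DRG and 10260 in the sham nerve (4.65-fold lower, 3.88 to 5.58), and Mag, the adhesion protein of the inner face, was at 2713 in the sham DRG and 8463 in the sham nerve (3.12-fold lower, 2.68 to 3.63). The brightest members stood closest together. Pmp22 was at 20270 in the sham DRG and 38620 in the sham nerve (1.91-fold lower, 1.63 to 2.23), and Mbp was at 35730 in the sham DRG and 56130 in the sham nerve (1.57-fold lower, 1.34 to 1.84). For Mbp this held for the chosen probe. Another was at 1392 in the sham DRG and 4560 in the sham nerve, and a dim one went the other way, at 613 and 295.

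The enzymes that make the glycolipids and long fatty acids of myelin were lower for 6 of 12 genes and higher for 0 (median -1.10). Ugt8a, which makes galactosylceramide, was at 2689 in the sham DRG and 18800 in the sham nerve (6.99-fold lower), and Fa2h, which adds the hydroxyl group to its fatty acid, was at 2898 in the sham DRG and 18060 in the sham nerve (6.23-fold lower, 5.35 to 7.26). Cers2, the ceramide synthase for very long chains, was 3.34-fold lower (2.88 to 3.86). Degs1, which every cell uses to make ceramide, was nearly level, at 9465 in the sham DRG and 10030 in the sham nerve. Cholesterol synthesis was closer still. Of 18 genes, 2 were lower, Sc5d and Idi1, a share near the 11.0% of all genes, and 0 were higher (median -0.28). The call of Idi1 was lost without scaling. Hmgcs1, the brightest of them, was at 29460 in the sham DRG and 50280 in the sham nerve (1.71-fold lower), while Sqle was at 5551 in the sham DRG and 3585 in the sham nerve, on the DRG side.

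Transcription factors and other genes of the SC lineage were mixed, with 6 of 18 lower, 2 higher and a median of -0.56. Egr2, which drives myelination, was at 880 in the sham DRG and 4491 in the sham nerve (5.10-fold lower). Dhh, the signal by which SCs form the perineurium, was at 2245 in the sham DRG and 8210 in the sham nerve (3.66-fold lower, 3.16 to 4.23). Zeb2, Yap1, Nab1 and Pou3f1 were also lower. The 2 higher genes were Ngfr and Jun, which was at 686 in the sham DRG and 314 in the sham nerve (2.18-fold, 1.82 to 2.61). S100b was at 562 in the sham DRG and 779 in the sham nerve, and Gfap, a filament of non-myelinating SCs and of astrocytes, had 184 in the sham DRG and was not detected in the sham nerve or the day 5 DRG. The Gfap signal was 183 in the day 1 nerve and 1652 in the spinal cord, and the part of spinal cord RNA in it was not tested.

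The contact between axon and SC could be followed on both sides. Of 14 detected genes that act on the axon side, 4 were higher in the sham DRG and 0 were lower (median 0.67), while of 13 that act on the SC side 7 were lower and 0 higher (median -1.23). Cntn1 and Cntnap2, the axonal proteins beside the node, were higher, with Cntn1 at 4062 in the sham DRG and 299 in the sham nerve (13.6-fold, 11.4 to 16.2) and Cntnap2 at 1908 in the sham DRG and not detected in the nerve (at least 15.4-fold). Nrg1, the axonal signal for myelination, had 552 in the sham DRG and was not detected in the nerve (at least 4.46-fold). Of the SC partners, Gldn, which gathers sodium channels at the node, was at 1064 in the sham DRG and 5183 in the sham nerve (4.87-fold lower, 4.14 to 5.73), and the laminin receptor subunit Itgb4 was at 2622 in the sham DRG and 11930 in the sham nerve (4.55-fold lower, 3.81 to 5.44). Nrcam, which both cells make, was nearly level at 710 in the sham DRG and 818 in the sham nerve.

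Guidance genes showed no common direction, with 4 ligands higher and 5 lower of 24 (median -0.20), and 3 receptors higher and 2 lower of 18 (median -0.13, and 0.04 without scaling). Over all genes the shares were 12.0% higher and 11.0% lower. Slit2 and the semaphorins Sema3b and Sema5a were 4.81-fold, 4.20-fold and 3.74-fold lower in the sham DRG, whereas Sema4f was detected in the sham DRG alone, at 1612.

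Satellite glia, which share many genes with SCs and astrocytes, did not form a block. Of 11 detected genes 3 were higher and 0 lower (median 0.22). Aldoc, an aldolase of glia and neurons, was at 5051 in the sham DRG and 309 in the sham nerve (16.4-fold, 13.8 to 19.4), and its spinal cord signal was 23660. Bcan had 882 in the sham DRG and was not detected in the nerve, and Ednrb was at 4238 in the sham DRG and 1521 in the sham nerve (2.79-fold, 2.37 to 3.27). Fabp7, a defining marker, had 150 in the sham DRG and was not detected in the nerve, and Glul was at 139 in the sham DRG and 184 in the sham nerve. The gap junction gene Gja1 was at 3438 in the sham DRG and 6657 in the sham nerve, just under 2-fold.

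**Figure D4:**
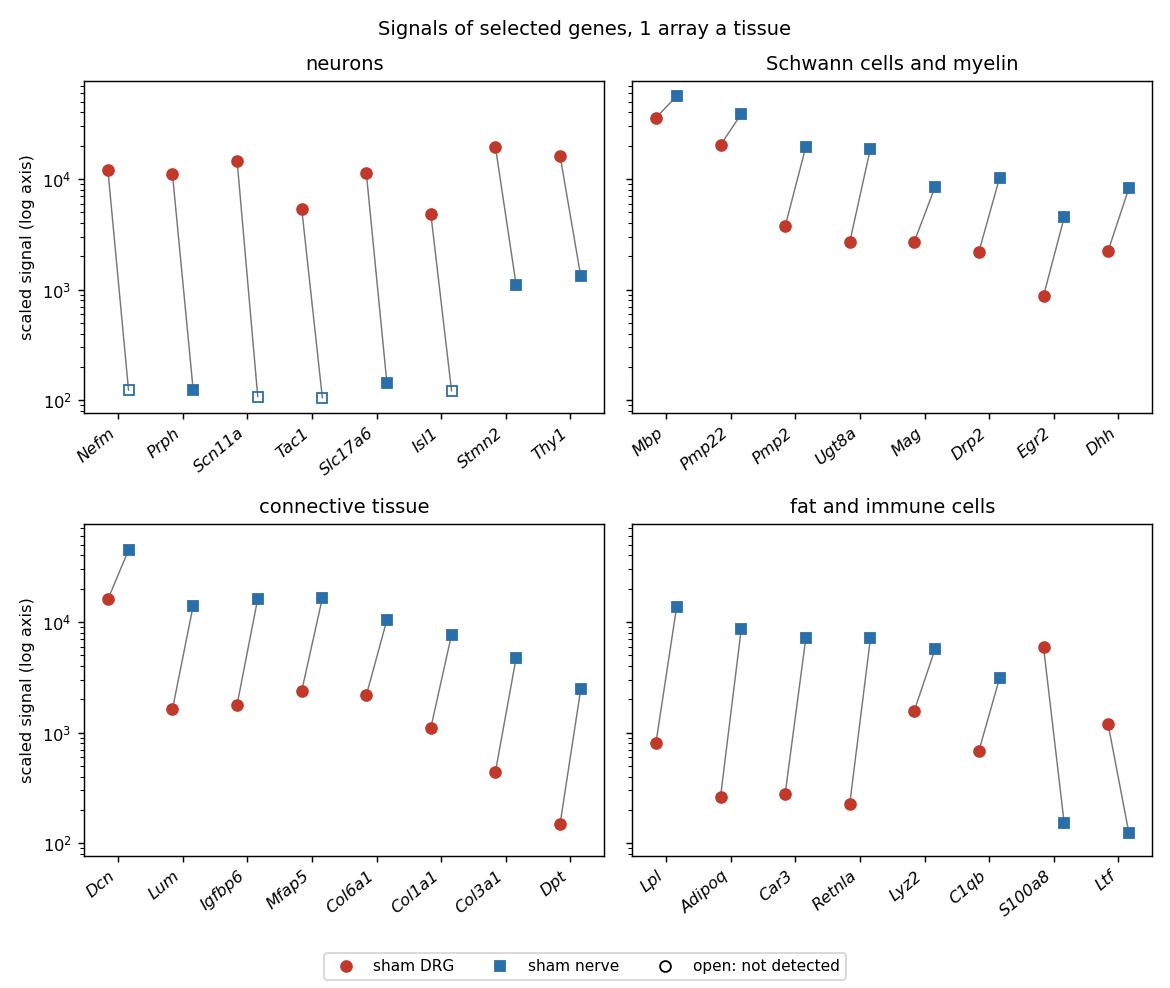
Scaled signals (log axis) of 32 genes in the sham DRG (red circles, left) and the sham nerve (blue squares, right), 1 array a tissue, with open symbols where a gene was not detected. Most neuronal genes lie near the floor in the nerve, with Stmn2 and Thy1 still above 1000 there. Genes of SCs, connective tissue and fat are brighter in the nerve, while S100a8 and Ltf are brighter in the DRG.

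Most connective tissue genes were lower in the sham DRG. Fibroblast markers were lower for 16 of 19 genes (median -2.36), and 1, Thy1, which neurons also express, was higher. Dpt, dermatopontin, was at 150 in the sham DRG and 2471 in the sham nerve (16.5-fold lower, 13.7 to 19.9), Pdgfra, the receptor that defines these cells, was at 518 in the sham DRG and 3953 in the sham nerve (7.63-fold lower, 6.42 to 9.07), and Igfbp6 was at 1789 in the sham DRG and 16250 in the sham nerve (9.08-fold lower, 7.65 to 10.8). Fibrillar and associated collagens were lower for 11 of 15 and higher for 0 (median -1.55). Col3a1 was at 445 in the sham DRG and 4746 in the sham nerve (10.7-fold lower, 8.78 to 12.9), and Col1a1 was at 1111 in the sham DRG and 7665 in the sham nerve (6.90-fold lower, 5.59 to 8.52). Small leucine-rich proteoglycans, which coat collagen fibrils, were lower for 8 of 10. Of these, Dcn remained the brightest in both tissues, at 16000 in the sham DRG and 44670 in the sham nerve (2.79-fold lower, 2.34 to 3.33), and Lum was at 1629 in the sham DRG and 13980 in the sham nerve (8.58-fold lower, 7.10 to 10.4).

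Basement membrane genes, which SCs, vessels and perineurial cells all make, were lower for 11 of 15 (median -1.76), with Col4a1 at 1796 in the sham DRG and 10620 in the sham nerve (5.91-fold lower, 4.97 to 7.04). Genes of elastic fibers and microfibrils were lower for 10 of 15 (median -1.71), among them the crosslinking enzyme Lox, at 786 in the sham DRG and 7024 in the sham nerve (8.94-fold lower, 7.41 to 10.8). Perineurial markers were lower for 7 of 13, with Ngfr again the exception (median -1.37). The tight junction gene Cldn1 was at 478 in the sham DRG and 3048 in the sham nerve (6.38-fold lower, 5.03 to 8.08), and the glucose transporter Slc2a1 was at 2457 in the sham DRG and 11010 in the sham nerve (4.48-fold lower, 3.89 to 5.16).

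The study as a whole concerns matrix metalloproteinases (MMPs) and their inhibitors. Of 12 detected MMP genes, 4 were lower in the sham DRG and 1 was higher (median -0.37). Mmp2, gelatinase A, was at 1139 in the sham DRG and 9800 in the sham nerve (8.61-fold lower, 7.43 to 9.97). Mmp3, stromelysin, was not detected in the sham DRG and had 934 in the sham nerve (at least 8.01-fold lower), and Mmp14, which activates proMMP-2, was 2.47-fold lower (2.08 to 2.93). The higher member was Mmp24, a membrane-type enzyme of neurons, with 733 in the sham DRG and no detection in the nerve (at least 5.92-fold). Mmp9, gelatinase B, was dim in both, at 202 in the sham DRG and 247 in the sham nerve (1.22-fold lower, 1.04 to 1.43). Mmp13 and Mmp16 were detected in the sham DRG alone, where they had 156 and 142, close to the floor. Of the inhibitors, Timp3 was lower, at 4241 in the sham DRG and 9991 in the sham nerve (2.36-fold lower, 2.04 to 2.72), while Timp2 was at 13620 in the sham DRG and 19590 in the sham nerve, and Timp1 at 202 in the sham DRG and 381 in the sham nerve (1.89-fold lower, 1.60 to 2.23). Of other genes that the study names, Cd44 was at 741 in the sham DRG and 323 in the sham nerve (2.29-fold, 1.93 to 2.73), Lcn2 at 655 in the sham DRG and 306 in the sham nerve (2.14-fold, 1.75 to 2.62), and Tnc at 118 in the sham DRG and 200 in the sham nerve.

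Growth regulators of the IGF system were lower for 6 of 11 and higher for 0 (median -1.27). Besides Igfbp6, Igfbp7 was at 4536 in the sham DRG and 22150 in the sham nerve (4.88-fold lower, 3.97 to 6.00), and Igf1 was 5.27-fold lower (4.52 to 6.15), while Igf2 was at 8334 in the sham DRG and 6242 in the sham nerve. Imprinted genes had no common direction, with 1 of 12 higher, 2 lower and 9 less than 2-fold apart (median 0.14). Among them, the growth inhibitor Cdkn1c was at 983 in the sham DRG and 5850 in the sham nerve (5.95-fold lower, 5.24 to 6.76), and Snrpn, a splicing protein gene active in neurons, was at 26480 in the sham DRG and 3292 in the sham nerve (8.04-fold, 6.69 to 9.67).

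Many of the genes with the widest differences on the nerve side were genes of fat. Adipocyte markers were lower for 10 of 13 and higher for 0 (median -2.39). Adipoq, the hormone adiponectin, was at 263 in the sham DRG and 8565 in the sham nerve (32.6-fold lower, 28.9 to 36.6), and Car3, carbonic anhydrase 3, was at 278 in the sham DRG and 7118 in the sham nerve (25.6-fold lower, 20.9 to 31.3). Lpl, lipoprotein lipase, was at 805 in the sham DRG and 13590 in the sham nerve (16.9-fold lower, 14.6 to 19.5), and the lipid droplet gene Cidec was at 121 in the sham DRG and 2583 in the sham nerve (21.3-fold lower). Lep, leptin, and Adig, adipogenin, were detected in the nerve alone, where they had 1203 and 1307. Alongside them stood Cyp2e1, a cytochrome P450 that liver and fat express, at 344 in the sham DRG and 10710 in the sham nerve (31.1-fold lower, 26.7 to 36.2), and the major urinary protein genes Mup2 and Mup6, at 270 and 174 in the sham DRG and 10120 and 5098 in the sham nerve (37.4-fold and 29.2-fold lower). Mup genes are near-identical copies, so that a probe of 1 may bind transcripts of others.

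Immune genes divided. Macrophage and monocyte markers were lower in the sham DRG for 15 of 24 and higher for 0 (median -1.46). Retnla, a product of alternatively activated macrophages that fat also expresses, was at 226 in the sham DRG and 7092 in the sham nerve (31.4-fold lower, 26.7 to 37.0). The markers of resident tissue macrophages Mrc1, Lyve1 and Folr2 were 3.69-fold, 6.86-fold and 5.70-fold lower, and Lyz2, lysozyme, was at 1581 in the sham DRG and 5672 in the sham nerve (3.59-fold lower, 3.06 to 4.20). Lower as well were 4 of 7 mast cell genes, among them Cpa3 at 289 in the sham DRG and 1080 in the sham nerve, 11 of 25 chemokines, 9 of 16 complement genes and 7 of 18 genes of antigen presentation. Their medians were -1.34, -0.51, -1.21 and -0.87 in this order, and 11.0% of all genes were lower. The complement regulator Clu, clusterin, which neurons and glia make, was the exception, at 7454 in the sham DRG and 1316 in the sham nerve (5.66-fold, 4.90 to 6.54).

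Neutrophil markers went the other way, with 7 of 13 higher, 1 lower and a median of 1.10. S100a8 was at 5915 in the sham DRG and 152 in the sham nerve (39.0-fold, 33.6 to 45.3), its partner S100a9 had 1767 in the sham DRG and was not detected in the nerve (at least 14.3-fold), and Ltf, lactoferrin, was at 1187 in the sham DRG and 125 in the sham nerve (9.51-fold, 8.06 to 11.2). Camp and Ngp, which are made in the bone marrow before neutrophils are released, had 391 and 395 in the sham DRG and were not detected in the nerve. The lower member was Hp, haptoglobin, which liver and fat make, at 208 in the sham DRG and 1935 in the sham nerve (9.30-fold lower, 7.31 to 11.8). For erythroid genes, hemoglobin Hba-a1 was at 55960 in the sham DRG and 55440 in the sham nerve and the list median was -0.11 (0.06 without scaling). Slc4a1, the anion exchanger of red cells, was at 724 in the sham DRG and 268 in the sham nerve (2.70-fold, 2.33 to 3.13). Markers of lymphocytes were dim, with 0 of 6 detected genes past 2-fold.

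Vessel genes were lower in the sham DRG for 8 of 15 endothelial and 7 of 13 pericyte and smooth muscle markers, and higher for 0 of either (medians -1.11 and -1.08). Pecam1 was at 236 in the sham DRG and 830 in the sham nerve (3.51-fold lower, 2.98 to 4.14), and the smooth muscle actin Acta2 was at 1776 in the sham DRG and 8562 in the sham nerve (4.82-fold lower, 4.06 to 5.73). Skeletal muscle markers were level for 16 of 17 genes, with Acta1 at 1218 in the sham DRG and 1268 in the sham nerve, and the remaining one, Pvalb, was at 8386 in the sham DRG and 1517 in the sham nerve (5.53-fold, 4.83 to 6.33).

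Hox genes keep the position of a cell along the body. Of 25 detected, 7 were higher in the sham DRG and 0 lower (median 0.46). Hoxb5 was at 1651 in the sham DRG and 148 in the sham nerve (11.2-fold, 9.29 to 13.4), Hoxd10 at 907 in the sham DRG and 170 in the sham nerve (5.32-fold, 4.45 to 6.37) and Hoxb7 at 1190 in the sham DRG and 361 in the sham nerve (3.30-fold, 2.78 to 3.92). All of these had still higher signals in the spinal cord (2613, 4485 and 3167), and in the day 5 DRG they were at 962, 554 and 843. At day 5 Hoxb7 was 1.84-fold apart from the injured nerve and so no longer passed 2-fold, while Hoxb5 and Hoxd10 did, at 6.16-fold and 4.04-fold. The part of spinal cord RNA in these folds was not tested. Hoxc10 was level at 415 in the sham DRG and 414 in the sham nerve, and Hoxc6 was at 1355 in the sham DRG and 1850 in the sham nerve.

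Glycolytic genes leaned to the sham DRG. Of 16 genes 8 were higher and 1 was lower (median 1.05). Those with the largest folds were Eno2, the neuronal enolase, at 10770 in the sham DRG and 653 in the sham nerve (16.5-fold, 14.2 to 19.2), Pfkp at 5760 in the sham DRG and 301 in the sham nerve (19.2-fold, 15.5 to 23.7) and Aldoc, which glia also express, while Gapdh was at 24320 in the sham DRG and 13310 in the sham nerve (1.83-fold). Hk2, the hexokinase of muscle and fat, was the exception, at 331 in the sham DRG and 1301 in the sham nerve (3.93-fold lower, 3.40 to 4.53). Of 43 subunits of oxidative phosphorylation, 5 passed 2-fold, all higher, led by Atp5g1 (3.16-fold) and Ndufa4 (3.12-fold), a share near the 12.0% of all genes, and the median was 0.50. Of 29 ribosomal protein genes 4 were lower, a share near the 11.0% of all genes, and 0 were higher, with a median of -0.55. The calls of Rps2, Rps19 and Rps24 were lost without scaling, and that of Rps24 also in the authors' table. The remaining one, Rps16, was at 4641 in the sham DRG and 11180 in the sham nerve (2.41-fold lower, 2.11 to 2.76). Of genes often used as references, Actb was at 6004 in the sham DRG and 5187 in the sham nerve, whereas Hprt was at 9543 in the sham DRG and 3123 in the sham nerve (3.06-fold, 2.57 to 3.64) and B2m at 7010 in the sham DRG and 16920 in the sham nerve (2.41-fold lower, 2.08 to 2.81).

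In 4 genes, separate probes passed 2-fold in opposite directions. Transcript forms and the probes themselves cannot be told apart here. For Klc1, the light chain of kinesin, the log2 differences of 5 detected probes were 5.05, 4.99, 2.48, 1.87 and -2.05. For Capzb, which caps actin filaments, 3 probes gave 1.01, 0.79 and -2.11. Syngr1 had 2 probes with log2 differences of 2.86 and 2.48 and 2 with -1.06 and -1.34, and the chosen probe was that with -1.06. Mbp had 1 dim probe at 1.06 beside -1.71 and the chosen probe at -0.65. Over all, 2750 genes had more than 1 detected probe, and for 99 genes a probe other than the chosen one passed 2-fold while the chosen one did not.

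The same question was put to a pair of arrays that shares none with the sham pair, DRG and injured nerve at day 5 after transection, both of them altered by the injury. There, 1264 of 10584 genes were at least 2-fold higher in the DRG (11.9%) and 1319 lower (12.5%). Of the 1251 genes higher in the sham DRG, 918 (73.4%) passed 2-fold in the same direction at day 5 and 8 in the opposite one. All 175 genes past 10-fold in the sham pair were at least 2-fold higher at day 5. Of the 1141 genes lower in the sham DRG, 632 (55.4%) were also lower at day 5, 7 were higher, and of the 16 past 10-fold 15 were lower again.

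Gene groups differed in how far they kept their place. The median log2 difference of the neuronal identity genes was 3.67 at day 5, against 3.54 in the sham pair, and that of fibrillar collagens was -2.22, against -1.55. For myelin structural genes it was -0.07 at day 5, against -1.84 in the sham pair, with 1 gene lower in place of 13. Their summed signal was 173244 in the sham nerve and 75455 in the injured nerve. It was 74045 in the sham DRG and 64640 in the day 5 DRG. For cholesterol synthesis the median was 1.44 at day 5, against -0.28, with 13 of 18 genes higher in place of 0. Here the sums were 83108 in the sham nerve and 15535 in the injured nerve, and 59235 in the sham DRG and 64295 in the day 5 DRG. Adipocyte markers were at -0.96 at day 5, against -2.39. Macrophage markers were at -2.74, against -1.46, and the genes that sensory neurons turn on after injury were at 2.40, against 0.33. The detected genes of spinal cord neurons were at 0.08 at day 5 (6 genes), against 1.75 in the sham pair (8 genes).

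**Figure D5:**
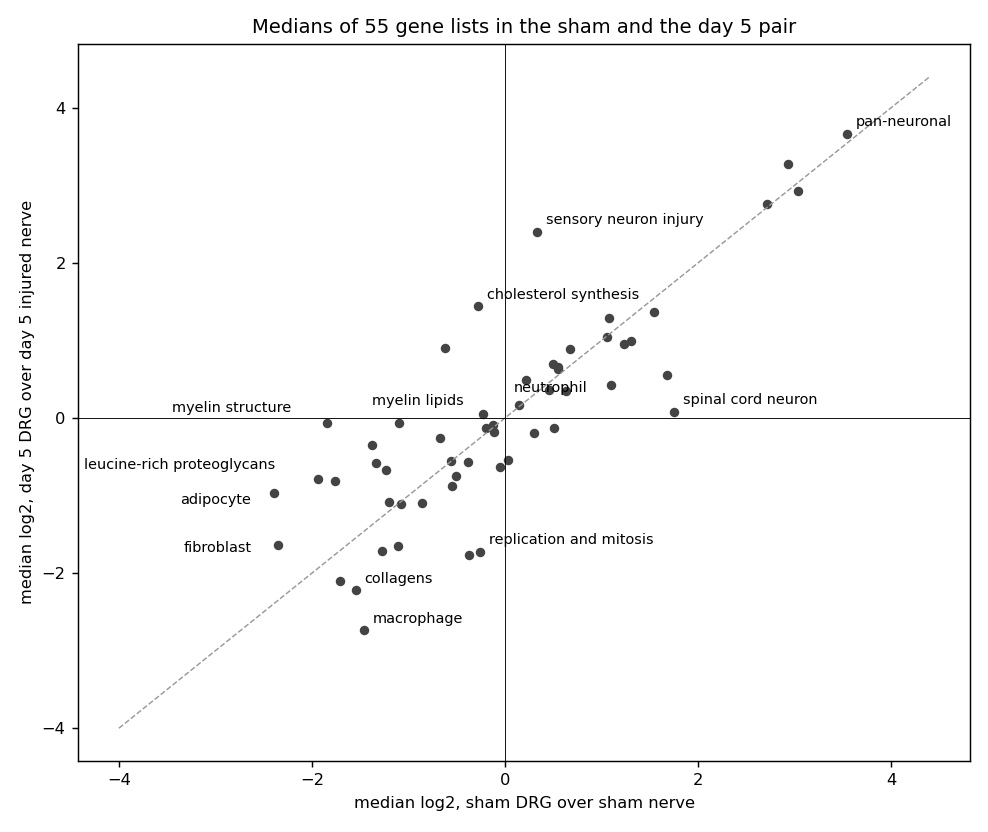
Median log2 of the DRG over the nerve signal for 55 gene lists with at least 5 detected members, in the sham pair (horizontal) and in the day 5 pair (vertical), 1 point a list, with equal values on the dashed line. Most neuronal lists lie near that line. Myelin and cholesterol lists lie above it, and macrophage and proliferation lists below it.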

How the data were processed

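RNA of the 6 tissue pools was hybridised to Illumina MouseRef-8 v2.0 arrays, and the sham DRG and the sham nerve were compared. The table deposited by the authors holds, for each probe and array, the mean bead intensity without background subtraction or scaling, the standard error of the beads, the bead count and a detection p-value against negative controls. A second intensity table deposited by the authors has the same quantiles in every array, whereas the methods describe normalization to the median. The submitters' processing notes name Agilent Feature Extraction 10.5, although the array is from Illumina.

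The median intensity of all 25697 probes was set equal between arrays, and signals were floored at the dimmest detected signal (detection p-value under 0.05), and compared as folds, with 2-fold as the limit, in python 3.11.15 with numpy 2.4.6 and pandas 2.3.3. Intervals used the bead standard errors (median 6.08% of the signal in the sham DRG and 6.53% in the sham nerve, over a median of 38 and 40 beads). The median bead number limits this precision, and it says nothing about animals. No p-value was computed, since there was 1 array a tissue. The calling step was tested on simulated data. Alternatives were no scaling, quantile normalization, neqc (R 4.3.3, limma 3.58.1), the authors' table, a detection p-value under 0.01 and another choice of probe.

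The genes named were the 15 widest folds each way among genes detected in both tissues, the 15 brightest each way among those detected in 1, the 4 brightest called members of each of 56 gene lists each way, members that go against their list, and genes the study names. Other list members were named after their values were seen. The members and lists were chosen with earlier results of these data known. Of 1178 list names, 1041 were matched to a gene on the array, and the rest were not analysed here. Promoters are from RefSeq (GRCm38.p6).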

Additional observations from a re-analysis of the deposited data

Results flagged for a closer look

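Of the genes named by the rule, 3 passed 2-fold in the sham pair and passed it in the opposite direction in the day 5 pair, and these differences were not tested. Elovl6, which elongates fatty acids, had a log2 difference of 1.45 at day 5 (1499 in the DRG and 550 in the injured nerve), while in the sham pair it was 2.52-fold lower in the DRG. Sc5d, an enzyme of cholesterol synthesis, had 1.13 at day 5 (351 in the DRG and 161 in the injured nerve), while in the sham pair it was 2.60-fold lower. Olig1 had -1.78 at day 5, where it was not detected in the DRG and had 409 in the injured nerve, while in the sham pair it was at 966 in the DRG and was not detected in the nerve.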

How the results depend on the processing

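Neither count of calls changed by more than 1.5 times under no scaling, quantile normalization, the authors' table, a detection p-value under 0.01 or another choice of probe. The exceptions were the lower genes under neqc, at 2107 against 1141, and under neqc with dim signals floored, at 1994, an alternative chosen after seeing the data. All 1251 higher genes were also called without scaling, and 906 of the 1141 lower ones. Of 247 called genes named, 10 lost their call without scaling, among them Syngr1, Idi1, Fads1, Per1, Rps2, Rps19 and Rps24, while 4 lost it under quantile normalization and 2 in the authors' table. The sizes depended more on the processing. Under neqc the log2 differences of 154 of 255 named genes left their bead intervals, 153 of them toward larger size, and 50 of 56 list medians moved by more than 0.1, all toward larger size. The same held for 46 named genes in the authors' table, 45 of them toward larger size, and without scaling all 56 list medians moved by more than 0.1. The list medians that changed sign were those of neurotrophin and GDNF family ligands (-0.05, against 0.12 without scaling and 0.34 with neqc), axon guidance receptors and erythroid genes (the last 2 without scaling alone). No paired analysis was possible because each tissue had 1 array. Signals near the floor give only bounds.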

Other observations

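Clock genes and immediate early genes leaned toward the nerve. Of 14 detected clock genes, 4 were at least 2-fold lower in the sham DRG and 0 were higher, with a median log2 difference of -0.67 and the call of Per1, 1 of the 4, lost without scaling, and 6 of 19 immediate early genes were lower and 1, Jun, was higher (median -0.39). For all genes the median was -0.05, with 12.0% higher and 11.0% lower. At day 5 the clock genes had 1 lower and 1 higher member of 14. The immediate early genes had 9 lower and 1 higher of 21, beside 12.5% lower and 11.9% higher for all genes.

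Voltage-gated calcium channel genes were higher in the sham DRG for 5 of 11 and lower for 0 (median 0.55), and ligand-gated channel subunits were higher for 6 of 18 and lower for 0 (median 0.55). Of those 18 subunits, 15 were detected in the sham DRG alone, and such a gene cannot count as lower. Over all genes, 12.0% were higher and 11.0% lower.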
